A study of Mus musculus with 12 samples.

Results

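The nuclear-encoded subunits of the respiratory chain and ATP synthase were followed in B16 cells, a mouse melanoma line, after depletion of Elp3. Members were all genes of the deposited count table whose symbol starts with Nduf and one of the subunit letters a, b, c, s or v followed by a digit, Sdha to Sdhd, symbols starting with Uqcr, Cyc1, symbols starting with Cox and a digit from 4 to 8, and symbols starting with Atp5. This gave 85 members among 24421 genes, of which 37 were placed in complex I, 4 in complex II, 9 in complex III, 18 in complex IV and 17 in complex V by symbol. The rule used no measured value. By the same symbols it takes in 3 kinds of gene that are not fixed subunits of the complex they are listed under: Ndufa4, now counted as a subunit of cytochrome c oxidase, with its paralogue Ndufa4l2; Cox7a2l, a factor for joining complexes III and IV; and Atp5s and Atp5sl, which are not part of the finished ATP synthase.

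Ribosome-protected fragments (RPF), the stretches of mRNA shielded from nuclease by a ribosome, and total RNA after removal of ribosomal RNA were sequenced from the same cultures. The cells had been transduced with a lentivirus that expressed either a non-relevant shRNA (shControl) or a single Elp3-specific shRNA, sh309 (shELP3). Each fraction held 3 shControl and 3 shELP3 libraries, lettered A, B and C, and in the labels each RPF library belongs to an RNA library with its own shRNA and letter. All cells were of the B16 line in the same serum-containing medium. Elp3 is the catalytic subunit of Elongator, a complex that modifies wobble uridines of tRNAs. The labels do not say whether the cells were clones or pools or whether the lettered cultures were separate transductions, so the spread behind each p-value is that of the lettered cultures and may be technical. With 1 shRNA against Elp3 an effect of Elp3 loss and an effect of that shRNA sequence cannot be told apart.

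Complexes I to IV pass electrons from NADH and succinate to oxygen, and complexes I, III and IV pump protons across the inner mitochondrial membrane. Complex V, the ATP synthase, uses the proton gradient to make ATP. Complex I takes electrons from NADH at its N module, hands them to ubiquinone at its Q module and pumps protons in its membrane arm, and most of its nuclear-encoded members are accessory subunits around that core. Except in complex II, nuclear-encoded subunits are built together with subunits made from mitochondrial DNA, so that 2 translation systems supply the same complex. Their nuclear genes are known to share promoter elements bound by NRF1, GABPA, YY1 and the estrogen-related receptors.

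Those elements were looked up in the promoter windows that bear on the genes described below. RefSeq windows (GRCm38.p6, the assembly known as mm10) from 250 bases before to 50 bases after the start of transcription were at hand for 66 of the 85 members, as 71 windows, among 32851 windows of all genes. The motifs searched, on both strands, were the consensus element of NRF1, CCGGAAG for GABPA and its ETS relatives, AAGATGGCG for YY1 and AAGGTCA for ERR alpha, and these motifs do not contain each other. The NRF1 element was in 25.4% of the members' windows (17 genes) and 4.60% of all windows. GABPA letters were in 22.5% (16 genes) and 8.86%, YY1 letters in 9.86% (7 genes) and 1.40%, and ERR alpha letters in 11.3% (8 genes) and 4.72%. A match is a description of the letters and not evidence of binding. The 30-base stretches below are shown because they belong to members on which the results turn: Ndufa6, whose footprints rose, Atp5g3, Atp5j and Ndufs6, with a high footprint to RNA ratio in control cells, Atp5j2, with the most negative footprint difference in complex V, and Ndufa9, with the most positive RNA difference among abundant members of complex I. Not shown are the GABPA letters of Atp5j, 61 bases before the start, and the ERR alpha letters of Atp5g3, 52 bases before it. All these genes lie on the minus strand, the stretches are read 5′ to 3′ along it, and capitals mark the motif.
Ndufa6, NRF1, chr15:82354249-82354278: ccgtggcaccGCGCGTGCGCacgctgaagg
Atp5g3, NRF1, chr2:73911295-73911324: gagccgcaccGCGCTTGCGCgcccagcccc
Ndufs6, NRF1, chr13:73328479-73328508: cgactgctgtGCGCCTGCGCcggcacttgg
Ndufs6, YY1, chr13:73328433-73328462: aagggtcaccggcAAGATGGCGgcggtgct
Atp5j, YY1, chr16:84835045-84835074: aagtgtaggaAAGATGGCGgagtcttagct
Atp5j2, YY1, chr5:145191499-145191528: ccaggacttcAAGATGGCGtcactcggtga
Ndufa9, YY1, chr6:126849096-126849125: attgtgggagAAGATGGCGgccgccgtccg
Of the 7 members with YY1 letters (Atp5j, Atp5j2, Ndufa9, Ndufc1, Ndufs4, Ndufs6 and Ndufs7), all but Atp5j had them 23 to 36 bases after the start of transcription, and Atp5j had them 88 bases before it.

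Total counts ran from 7619269 to 16527864 per library. The letter A libraries stood apart: across genes the control RNA of A had Spearman correlations of 0.910 and 0.904 with B and C, against 0.993 between B and C, while in the shELP3 footprints the 3 pairs lay between 0.982 and 0.992. Elp3 itself was at 70.0 to 93.9 CPM (counts relative to the library's size, scaled by the TMM method within a fraction) in control RNA and 35.3 to 41.3 in shELP3 RNA, and its footprints fell (log2 fold change -0.93, SE 0.15, edgeR adjusted p = 0.0249), whereas in RNA the change of -1.08 had an adjusted p of 0.0831. Of the melanocyte markers 7 of 7 passed the filter on low counts, of the epithelial markers 0 of 6, of the leukocyte markers 2 of 9 (Cd68 and Lyz2, with Ptprc at 0 in all RNA libraries) and of the fibroblast markers 2 of 7 (Col1a1 and Pdgfra, with Dcn at 0 in every library). The melanocyte marker Pmel was lower in shELP3 cells in RNA (-1.59, adjusted p = 0.0396) and in footprints (-1.81, adjusted p = 0.0364), and no leukocyte marker was called in RNA, footprints or TE.

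Members took 1.14 to 2.08% of the counts of an RNA library and 1.99 to 2.21% of those of an RPF library. In RNA the high values were those of letter A, at 2.08% in control and 1.87% in shELP3, while the other 4 RNA libraries lay between 1.14 and 1.21%. Set against the mean of B and C, RNA of letter A was higher for 74 of the 78 members tested in control cells (median log2 difference 1.24) and for 75 of 78 in shELP3 cells (0.76). The same comparison gave 50.5% and 52.1% of all genes. In footprints 52 of 78 members were higher in A in each group, with medians of 0.19 in control and 0.06 in shELP3. Letter A is a culture label and nothing says what set these cultures apart, so letter values are given beside the RNA results below.

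**Figure D1:**
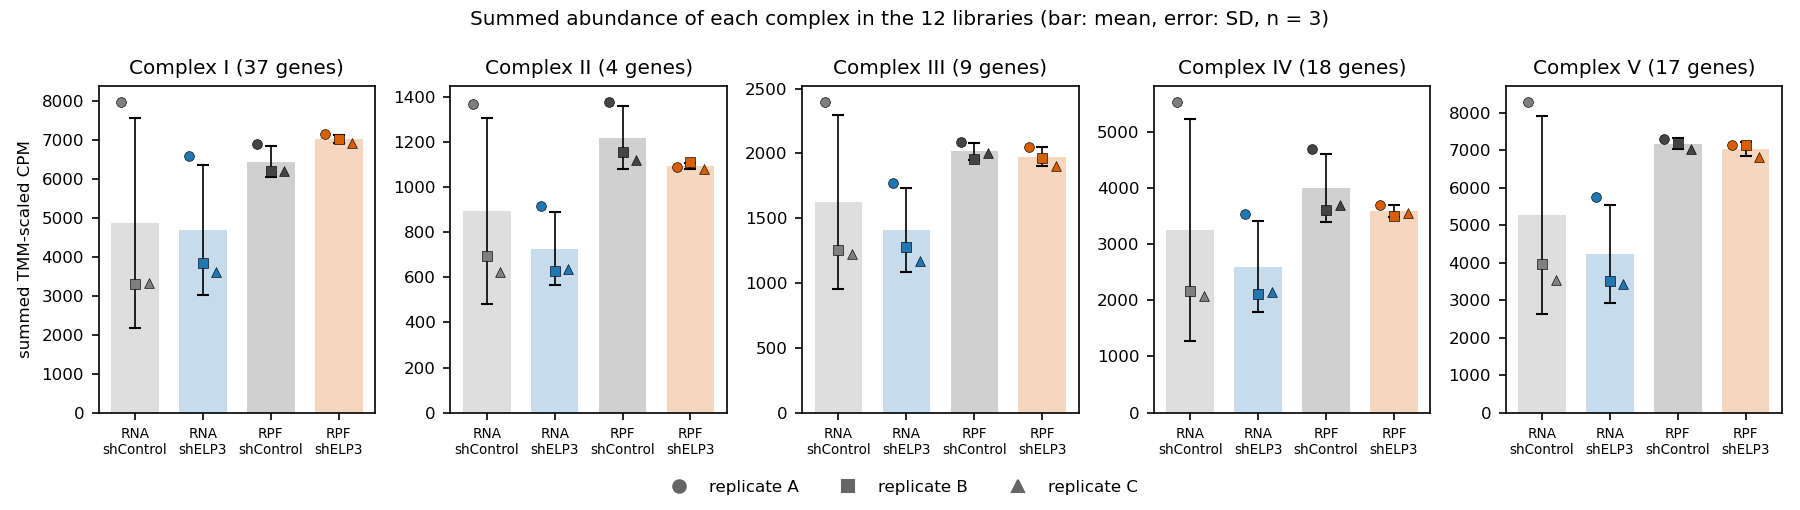
Summed TMM-scaled CPM of the members of each complex (vertical axes, linear from 0) in the 12 libraries, with bars for the mean and error bars for the SD of 3 libraries, and a point for each replicate letter. RNA of replicate A sits above B and C in all 5 complexes, and the complex I footprints of shELP3 (6936 to 7146) lie just above those of control (6204 to 6903).

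Of the 85 members 78 passed the filter in both fractions. The 7 that did not were Ndufs5, an accessory subunit of complex I with at most 5 counts in any library, and the complex IV isoforms Cox4i2, Cox6b2, Cox7a1, Cox7b2, Cox8b and Cox8c, with at most 8. These isoforms are known from lung, testis, heart or muscle. Ndufa4l2 passed in footprints with 3 shELP3 libraries and 2 control libraries over the minimum of 1.07 CPM. The control libraries alone did not carry it past the filter. Its tests in footprints and TE thus depend on the group where it is high. Many subunit genes have near-identical processed pseudogenes, and how reads shared with them were counted is not given in the sources used here, which leaves the level of such genes uncertain.

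In RNA no member was called between shELP3 and shControl (edgeR quasi-likelihood test, adjusted p under 0.05, 0 of 78), with 3 at an unadjusted p under 0.05, where 1.14% of all 12274 genes were called (0.22% higher and 0.921% lower). Libraries of the groups did not overlap for 3 members that were higher (Ndufa4l2, Cox6a2 and Cyc1) and 2 that were lower (Atp5g3 and Atp5j), where 10.2% of all genes were higher and 9.56% lower in this way. DESeq2 called 2 members (2.56%), Ndufa4l2 and Cox6a2, both higher, and 5.31% of all genes. The median log2 fold change of the 78 members was -0.24, against -0.02 for all genes, and 56 of the 78 were below 0. By complex the medians were -0.03 (I), -0.39 (II), -0.34 (III), -0.45 (IV) and -0.32 (V). The median over all members rested on letter A. Within letter A the members' median difference was -0.47, and within B and C it was 0.01 and -0.01. Leaving out the control library A turned the median to 0.31, and leaving out the shELP3 library A gave -0.57. By complex, the medians within A, B and C were -0.23, 0.21 and 0.11 for complex I, -0.71, -0.18 and 0.11 for complex II, and -0.58, -0.06 and -0.13 for complex III. They were -0.77, -0.10 and 0.05 for complex IV and -0.52, -0.20 and -0.13 for complex V. Letter A was thus the lowest in each complex, and complexes III and V were below 0 in all 3 letters.

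**Figure D2:**
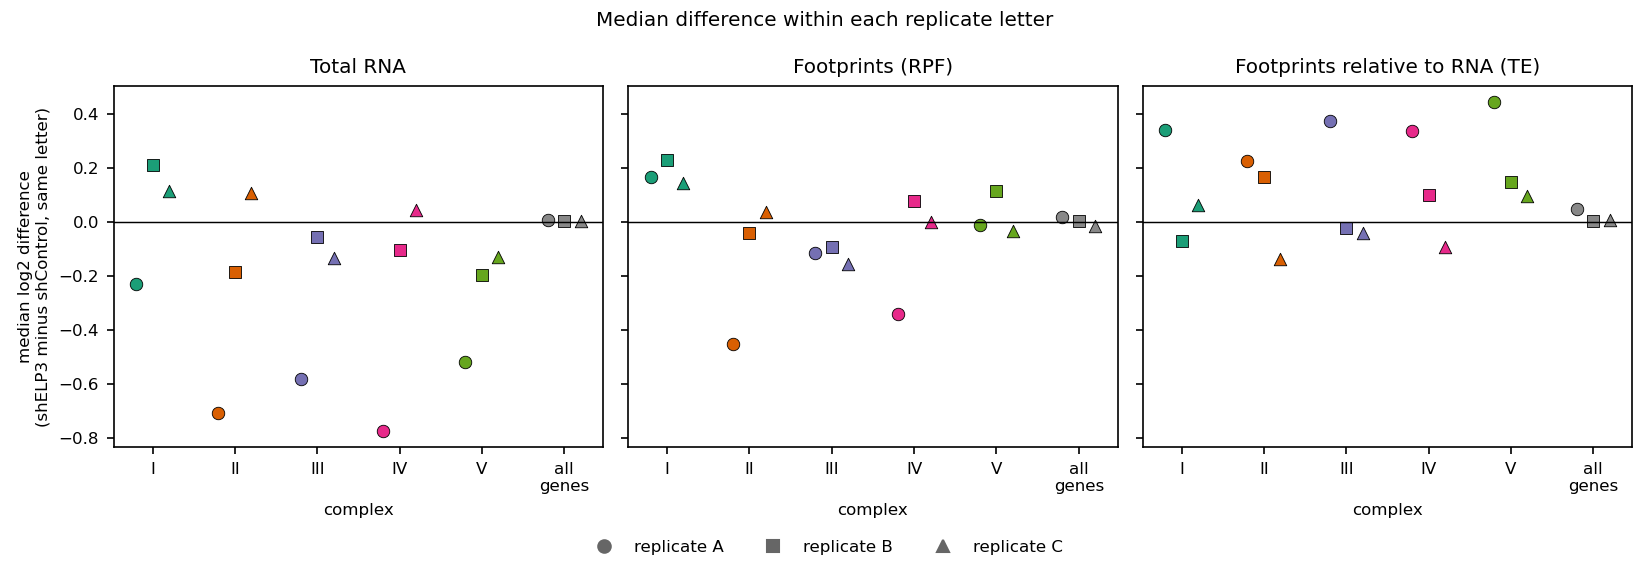
Median log2 difference between the shELP3 and shControl libraries of the same replicate letter, for the members of each complex and for all genes tested, in RNA, in footprints and in footprints relative to RNA. The RNA points of replicate A lie at -0.23 to -0.77 in the 5 complexes, apart from B and C. The 3 complex I points in footprints lie at 0.14 to 0.23, but letters were not taken to pair footprint libraries.

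Same-letter RNA libraries of the shRNAs deviated together from their group means, and with the letter as a block 5 members were called, Ndufa4l2 and Cox6a2 higher and Ndufv2, Cox7b and Cox5b lower. That is 6.41% of the members, where the same block called 12.2% of all genes. Cox6a2 and Cox5b are named here after their values were seen. Ndufa4l2, which is known as a hypoxia-inducible relative of Ndufa4, read 1.27, 1.19 and 1.48 CPM in control RNA of A, B and C and 3.66, 4.87 and 2.76 CPM in shELP3 RNA. All shELP3 libraries were above all control libraries (1.51 on the log2 scale, SE 0.34, edgeR adjusted p = 0.104 without the block, against 1.48 and adjusted p = 0.0177 with it). Cox6a2, the heart and muscle isoform of a complex IV subunit, was similarly sparse, at 2.61, 1.83 and 4.15 CPM in control and 7.38, 7.25 and 5.995 CPM in shELP3. These groups did not overlap either, and the log2 fold change was 1.26 (SE 0.36, adjusted p = 0.191, with the block 1.30 and 0.0213).

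The 3 members lower under the block were abundant ones whose groups overlapped through the shELP3 library A. Ndufv2, an iron-sulfur subunit of the NADH-oxidising N module, had 235, 93.7 and 81.1 CPM in control RNA and 110, 54.8 and 50.3 CPM in shELP3 RNA. Within every letter the shELP3 library was the lower (log2 fold change -0.93, SE 0.50, adjusted p = 0.532, with the block -0.86 and 0.00575). In RNA 23.9% of all genes were lower within all 3 letters. Cox7b, a small membrane subunit of cytochrome c oxidase, had 413, 114 and 104 CPM in control and 190, 74.9 and 77.9 CPM in shELP3. It was also lower within each letter (-0.88, adjusted p = 0.675, with the block -0.71 and 0.0261), and without the control library A its log2 fold change was 0.076. Cox5b, the zinc-binding subunit of complex IV, read 266, 183 and 190 CPM against 193, 102 and 133 CPM (-0.58, adjusted p = 0.524, with the block -0.61 and 0.0391).

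The largest RNA differences in each complex, among members whose mean log2 CPM was 3 or more, all failed the test. In complex I these were Ndufv2, above, and Ndufa9, an accessory subunit where the arms of the complex meet, with 270, 159 and 160 CPM in control and 331, 211 and 225 CPM in shELP3 (0.38, SE 0.31, adjusted p = 0.723). Ndufa9 was higher within each letter, as were 25% of all genes, although the groups overlapped. In complex II, Sdhd, a membrane anchor, had 243, 117 and 90.0 CPM against 145, 76.3 and 99.6 CPM (-0.49), and Sdha, the flavoprotein that oxidises succinate, 338, 272 and 259 against 288, 279 and 271 (-0.05). In complex III, Uqcrh, the hinge protein beside cytochrome c1, had 572, 218 and 189 CPM against 277, 160 and 167 CPM (-0.70), and was lower in each letter. Uqcrq, a small subunit of the same complex, was an exception to the letter A pattern, with less RNA in A than in B or C: 73.7, 120 and 135 CPM in control and 93.2, 197 and 115 CPM in shELP3 (0.30). In complex IV, Cox4i1, the largest nuclear-encoded subunit, had 883, 433 and 459 CPM against 863, 525 and 573 CPM (0.14). In complex V, Atp5c1, the gamma shaft of the rotor, had 808, 294 and 238 CPM against 418, 203 and 212 CPM (-0.68), and Atp5d, the delta subunit at the foot of that shaft, 229, 259 and 261 against 215, 322 and 241 (0.06). The adjusted p-values of the 7 members after Ndufa9 lay between 0.648 and 0.968.

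In footprints 2 of the 78 members were called, both higher in shELP3 cells and both listed under complex I, where 4.83% of all 11343 genes were called (1.77% higher and 3.06% lower). A count of 2 in 78 is a share of 2.56%, below that of all genes. The median over the members was -0.0007, against -0.01 for all genes, and 18 members had an unadjusted p under 0.05.

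Ndufa4l2 had 1.40, 0.795 and 1.09 CPM in the control footprints of A, B and C and 5.15, 6.59 and 6.76 CPM in those of shELP3. The groups did not overlap (2.50 on the log2 scale, SE 0.32, edgeR adjusted p = 0.0163). The model over all 12 libraries also called the rise (adjusted p = 0.00373), as did the letter block (0.0116), though letters were not taken to pair RPF. These refits use the same footprint libraries and are not separate support. Its control counts sit at the filter's minimum, so the size of the fold rests on few reads. Because Ndufa4l2 passed the filter through its shELP3 libraries, the call does not stand as evidence by itself. Ndufa6, an accessory subunit of the LYR family that holds the mitochondrial acyl carrier protein in complex I, had 116, 98.7 and 107 CPM in control and 157, 173 and 162 CPM in shELP3. Its lowest shELP3 library was above its highest control library (0.61, SE 0.13, adjusted p = 0.0403). This call was lost in the model over all 12 libraries (adjusted p = 0.452) and with the letter block (0.0629). Both calls were also lost when any single library other than control A was left out, with adjusted p of 0.0606 to 0.111 for Ndufa4l2 and 0.116 to 0.199 for Ndufa6, at log2 fold changes of 2.31 to 2.61 and 0.55 to 0.64.

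RNA of Ndufa6 overlapped between the groups. It read 264, 101 and 104 CPM in control and 210, 137 and 123 CPM in shELP3, a log2 fold change of 0.00 (SE 0.43). Ndufab1, the acyl carrier protein itself, which the naming rule leaves out, had 286, 239 and 275 CPM of footprints in control and 362, 415 and 391 CPM in shELP3. Its groups did not overlap, and the test fell just short (0.55, SE 0.13, adjusted p = 0.0535).

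**Figure D3:**
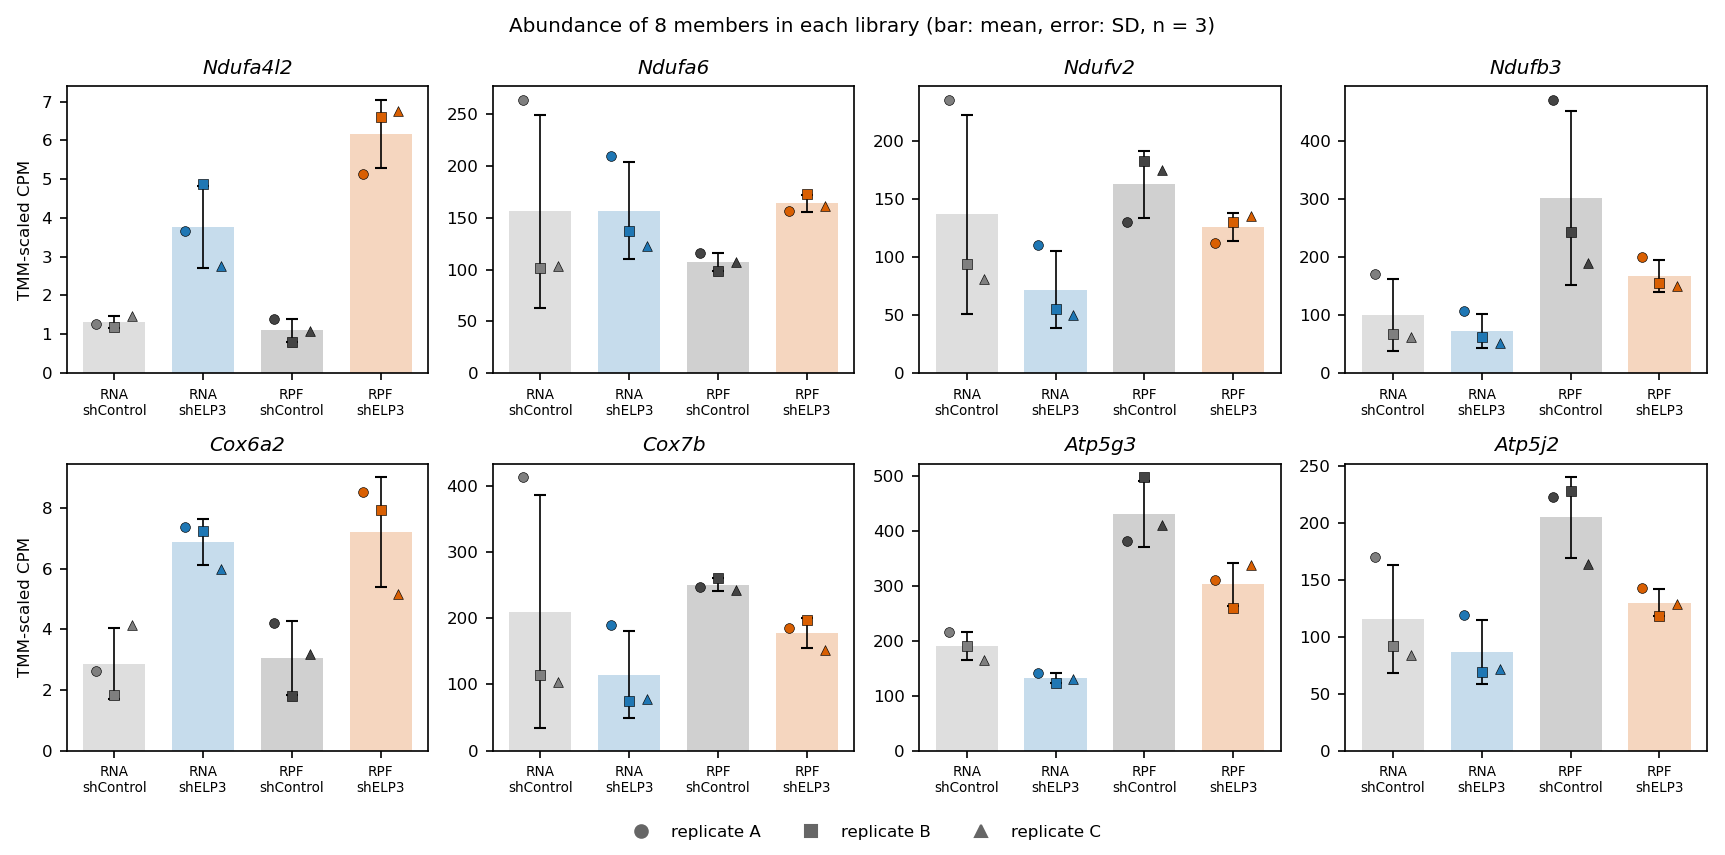
TMM-scaled CPM (vertical axes, linear from 0) of 8 members in each library, with bars for the mean, error bars for the SD of 3 libraries and a point per replicate letter. Ndufa4l2 and Ndufa6 have shELP3 footprints above all control footprints, Atp5g3 and Atp5j2 have shELP3 footprints below all control footprints, and the RNA of Ndufa6, Ndufv2 and Cox7b is highest in replicate A.

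Complex I footprints as a whole lay on the higher side. Of its 36 tested members 27 were above 0, the median was 0.18, and 14 (38.9%) had shELP3 libraries that were all above the control libraries, where 15.4% of all genes did so. Ndufa4l2, which passed the filter only through its shELP3 libraries, is among these 14. A further 3 (8.33%) were below without overlap, where 15.3% of all genes were. The members of complex I took 0.627 ± 0.017% of footprint counts in control (SD, n = 3, from 0.613 to 0.646%) and 0.721 ± 0.025% in shELP3 (0.699 to 0.747%). The groups of library shares did not overlap. In such bulk samples a change in the number of cells that make these proteins and a change in footprints per cell cannot be told apart. Beside this share, the 7 fibroblast markers summed to 24.8 to 26.6 CPM in control footprints and 35.3 to 40.4 CPM in shELP3 footprints. Dcn, Lum and Col3a1 were at 0 in both groups. Col1a1 was called higher (1.48, SE 0.22, edgeR adjusted p = 0.0203). Pdgfra, the other marker that passed the filter, was not called (0.12, SE 0.16, adjusted p = 0.693). Sums of the other marker lists in footprints were not higher in shELP3. The melanocyte markers summed to 14500 to 33900 CPM in control and 11400 to 20300 CPM in shELP3. For the leukocyte markers it was 23.7 to 77.3 CPM and 14.7 to 33.3 CPM, and for the epithelial markers 0.456 to 0.7 CPM and 0.126 to 0.309 CPM. The part of these markers in the result was not tested.

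Within letters the complex I median was 0.17 (A), 0.23 (B) and 0.14 (C), and without the A libraries it was 0.19, with 25 of 36 above 0. Letters were not taken to pair footprint libraries. Within-letter values in footprints, here and for the other complexes, thus match libraries by label only. Ndufa4, whose place in complex I is historical, and Ndufa4l2 did not set the complex I median. Without them, an alternative chosen after seeing the data, the median was 0.18 and 25 of 34 were above 0, but the summed CPM of the remaining 35 genes then overlapped (5500 to 6315 in control and 6273 to 6495 in shELP3).

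Of the 29 tested Nduf members outside the core of the N and Q modules, Ndufa4 and Ndufa4l2 included, 23 were above 0 in footprints (median 0.24). Of the core members 1 of 3 in the N module (median -0.14) and 3 of 4 in the Q module (median 0.096) were above 0. Among the 14 members without overlap were Ndufa12 (0.49, adjusted p = 0.109), Ndufb2 (0.46, 0.106), Ndufb9 (0.45, 0.078), Ndufc2 (0.37, 0.132) and Ndufa9 (0.27, 0.201), all accessory subunits that missed the threshold. Footprints of Ndufa9 were at 317, 317 and 321 CPM in control and 386, 363 and 400 CPM in shELP3. Complex I members on the lower side included Ndufb3, an accessory subunit of the membrane arm, with the lowest value (-0.84, SE 0.32, adjusted p = 0.17). It read 471, 243 and 189 CPM in control and 199, 155 and 149 CPM in shELP3, and the control library A stood far above the other 5. Ndufs8, an iron-sulfur subunit of the Q module, was lower without overlap (-0.44, adjusted p = 0.185). Ndufv2 footprints were at 130, 183 and 175 CPM in control and 112, 130 and 135 CPM in shELP3 (-0.37, adjusted p = 0.234).

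**Figure D4:**
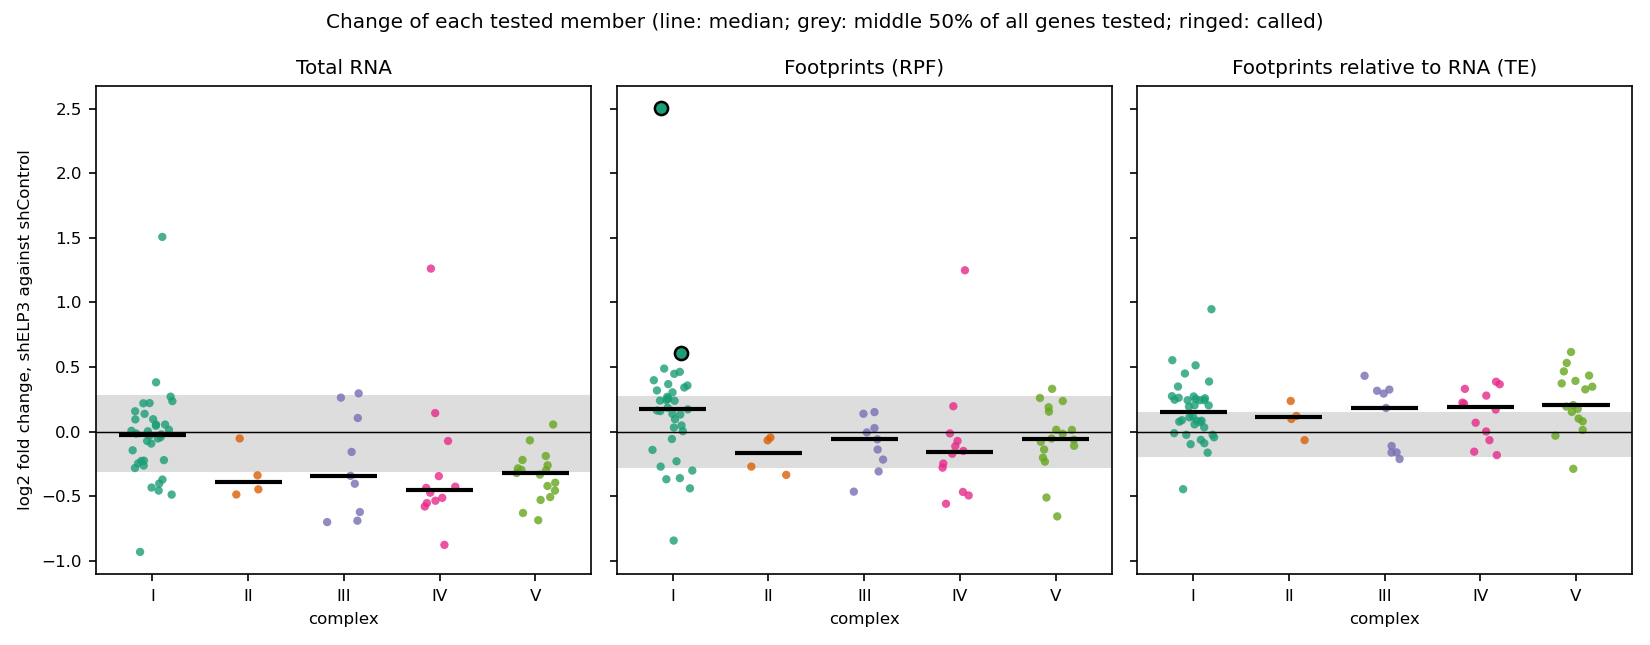
Log2 fold change between shELP3 and shControl (vertical axis) of every tested member, by complex, in RNA, in footprints and in footprints relative to RNA, with a black line at each complex's median and a grey band for the middle 50% of all genes tested. The ringed points are the 2 called members, Ndufa4l2 at 2.50 and Ndufa6 at 0.61, both in the footprints of complex I.

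The other complexes had footprint medians below 0, and no member of them was called. In complex II all 4 members were below 0 (median -0.17). Sdhd footprints were at 105, 86.2 and 71.9 CPM in control and 74.1, 62.2 and 72.4 CPM in shELP3 (-0.33, adjusted p = 0.292), and Sdhc, the other membrane anchor, was at 198, 145 and 131 against 149, 158 and 153 (-0.05). The complex II medians within letters were -0.45, -0.04 and 0.03, so only letter A was clearly below 0. In complex III (median -0.06, and -0.12, -0.09 and -0.16 within A, B and C) 0 of 9 members were higher without overlap, where 15.4% of all genes were. Another 2 (22.2%) were lower without overlap, where 15.3% of all genes were. With 9 members these counts do not set complex III apart from all genes. Uqcrh was lower in every shELP3 library, at 158, 123 and 130 CPM against 206, 177 and 183 CPM in control (-0.46, SE 0.15, adjusted p = 0.11). Uqcrfs1, the Rieske iron-sulfur protein, was the other member that did not overlap, with a small difference: 126, 129 and 125 CPM in control and 116, 117 and 112 CPM in shELP3 (-0.14, adjusted p = 0.514). Uqcrc1, a core protein of complex III, had 299, 361 and 370 CPM against 411, 371 and 362 CPM (0.15), and these groups overlapped.

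Complex IV had a footprint median of -0.16, with 10 of 12 members below 0, but within letters the median was -0.34 in A, 0.08 in B and -0.0023 in C, so that letter A alone was clearly below 0. Cox7b was lower in all shELP3 libraries, at 185, 197 and 152 CPM against 247, 261 and 243 CPM in control (-0.49, SE 0.14, adjusted p = 0.0847), as it was within each letter in RNA. Cox6a2 was higher in all shELP3 libraries, at 8.54, 7.93 and 5.15 CPM against 4.20, 1.79 and 3.19 CPM (1.25, SE 0.37, adjusted p = 0.0948). Cox8a, another small membrane subunit, had the lowest value among the abundant members, with the control library A far above the rest: control footprints were at 533, 243 and 240 CPM and those of shELP3 at 275, 215 and 200 CPM (-0.56, adjusted p = 0.338). Cox4i1 lay at 631, 537 and 574 CPM in control and 703, 630 and 664 CPM in shELP3 (0.20, adjusted p = 0.387).

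Complex V had a footprint median of -0.05 (-0.01, 0.11 and -0.03 within A, B and C), and its members went both ways. Atp5j2, subunit f of the membrane part, had 223, 228 and 164 CPM in control and 143, 119 and 129 CPM in shELP3. The groups did not overlap, and the test fell short of the threshold (-0.66, SE 0.16, adjusted p = 0.0653, or 0.0429 with no filter on low counts). Atp5g3, which encodes the c-ring subunit as do Atp5g1 and Atp5g2, had 383, 498 and 412 CPM in control and 311, 260 and 338 CPM in shELP3 (-0.51, SE 0.16, adjusted p = 0.107). RNA of Atp5g3 was also without overlap, at 216, 190 and 165 CPM against 142, 124 and 131 CPM (-0.53, SE 0.21, adjusted p = 0.361). Atp5o, the OSCP subunit that ties the stator to the catalytic head, was higher in all shELP3 footprint libraries, at 483, 472 and 474 CPM against 374, 374 and 387 CPM (0.33, SE 0.11, adjusted p = 0.124). Atp5d footprints were at 478, 368 and 418 CPM in control and 565, 465 and 412 CPM in shELP3 (0.19, adjusted p = 0.534).

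More members passed the test when the control library A was left out, as did more of all genes. Without it 18 passed, 12 of them higher and 6 lower, and over the B and C libraries alone it was again 18, with 10 higher and 8 lower. Each count is 23.1% of the members, where 24.8% of all genes passed without control A and 21.7% over B and C alone, so the members' share was close to that of all genes. Of the 12 higher members 10 were Nduf genes (Ndufa2, Ndufa4l2, Ndufa6, Ndufa7, Ndufa12, Ndufb2, Ndufb6, Ndufb9, Ndufc1 and Ndufc2), the others being Atp5o and Cox6a2, and the 6 lower were Ndufv2, Uqcrh, Cox5b, Cox7b, Atp5g3 and Atp5j2. Nduf genes were 36 of the 78 members tested in footprints.

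Footprints relative to RNA, often called translational efficiency (TE), were compared through an interaction term between shRNA and fraction over all 12 libraries. No member was called (0 of 78) and none had an unadjusted p under 0.05, and over all 11238 genes the share called was 0%, with 62 genes at an unadjusted p under 0.05. DESeq2 called 0 members as well. The members' median was 0.19, against -0.03 for all genes, and 59 of 78 were above 0, among them 15 of the 17 in complex V. The median over all members again rested on letter A: it was 0.35 within A and 0.04 and 0.03 within B and C, and over the B and C libraries alone it was 0.0013. With the control culture A left out it was -0.29, and without the shELP3 culture A it was 0.49. With a block for the culture, or for the letter, it was 0.09, and no member was called. Complex V had a positive median in each letter, at 0.44 (A), 0.15 (B) and 0.10 (C), and 10 of its 17 members were above 0 in 3 of 3 letters, where 16.7% of all genes were. Without the control culture A, however, 54 of the 78 members changed sign in TE. In complex V only Atp5e and Atp5j stayed above 0 under every alternative setting.

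In TE the highest abundant member was Atp5c1 in complex V (0.62, SE 0.58), whose footprints overlapped, at 612, 486 and 528 CPM in control and 547, 542 and 520 CPM in shELP3. Ndufa6 was the highest in complex I among abundant members (0.55, SE 0.47) and Ndufb3 the lowest (-0.44, SE 0.62). In complex II the extremes were Sdhc (0.24) and Sdha (-0.07), with Sdha footprints at 508, 537 and 500 CPM in control and 464, 491 and 521 CPM in shELP3. Complex III ran from Uqcrq (-0.21) to Uqcrfs1 (0.43), whose RNA was at 194, 80.5 and 65.9 CPM against 106, 55.0 and 60.7 CPM. Complex IV ran from Cox8a (-0.18) to Cox7a2 (0.39), a membrane subunit whose RNA was at 639, 168 and 147 CPM against 358, 134 and 177 CPM. In complex V the lowest was Atp5j2 (-0.29). Every one of these members overlapped between the groups in TE. The members whose TE did not overlap were Ndufa4l2 (0.95, SE 0.46) and Atp5j (0.21), both higher, which is 2.56% of the members where 3.08% of all genes were higher without overlap. Ndufa4l2 was tested here only through its shELP3 footprint libraries. No member was lower without overlap, where 3.44% of all genes were.

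Within control cells footprints were compared with RNA for 77 members that passed the filter there. The ratio of footprint CPM to RNA CPM compares each gene with the average gene of its libraries. The feature over which footprints were counted is not given. The lengths of the coding stretch and of the whole mRNA may thus enter footprints and RNA differently, and this was not tested. Members lay on the high side: 64 of 77 were above 0 on the log2 scale, with a median of 0.46, where all genes had -0.05. The test called 11 members, 10 higher and 1 lower, a share of 14.3%, where 23.1% of all 10583 genes were called (8.35% higher and 14.7% lower). Footprint and RNA libraries did not overlap for 15 members on the high side and 4 on the low side, where 15.7% and 27.6% of all genes did not. Libraries of the same control culture deviated together in the 2 fractions, and with the culture as a block 25 members (32.5%) were called, 21 higher and 4 lower, where 35.3% of all genes were.

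**Figure D5:**
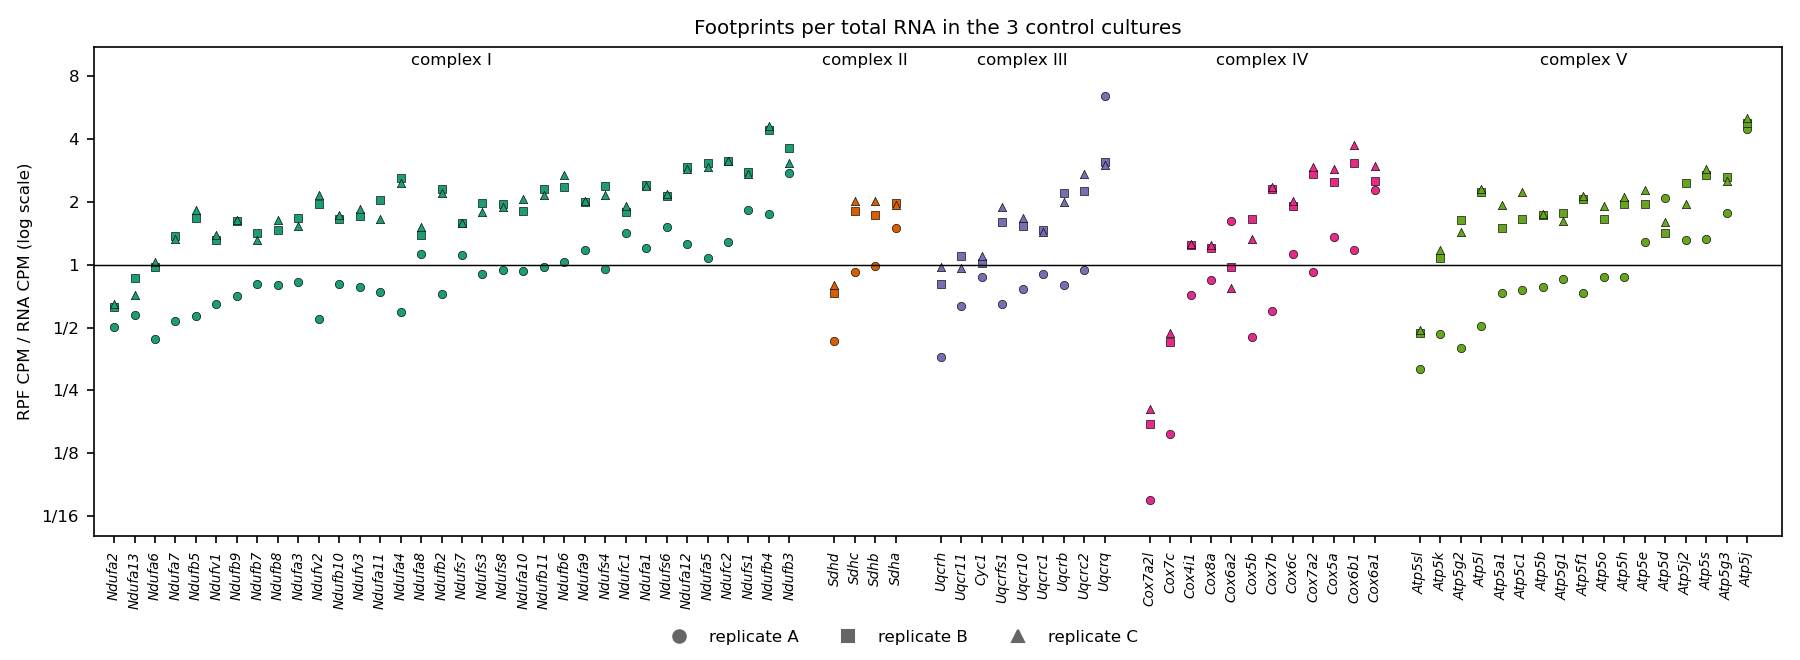
Footprint CPM divided by RNA CPM (vertical axis, log scale to base 2) of 76 of the 77 members in control cultures A, B and C, ordered within each complex by the fitted ratio. Culture A lies below B and C for most members, Atp5j is near 5 in all 3 cultures, and Cox7a2l lies lowest, between 0.07 and 0.20.

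The ratio depended on the culture. The median over 78 members was 0.871 in control A, 1.78 in B and 1.91 in C, and in shELP3 cells it was 1.13, 1.94 and 1.84. In control A 27 of 78 members were above 1, and in B and C 67 and 68 were. The number of calls moved with the cultures for the members and for all genes, but not to the same extent. With all 3 control cultures 14.3% of the members were called and 23.1% of all genes. With control cultures B and C alone 68 members (88.3%) were called and 69.2% of all genes. The members' share thus went from below to above that of all genes. Without B 0 members were called and 0.292% of all genes, and without C 2 members (2.60%) and 1.25% of all genes.

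Atp5j, coupling factor 6 of the ATP synthase stator, had the highest fitted ratio and varied little between cultures, at 4.46, 4.78 and 5.05 in control and 5.58, 5.98 and 5.43 in shELP3. Its log2 ratio in control was 2.36 (SE 0.22, edgeR adjusted p = 0.00204). In control RNA it was at 88.5, 75.5 and 76.5 CPM, and in control footprints at 395, 361 and 387 CPM, so it did not share the high RNA of letter A that most members showed. In shELP3 cells its RNA was at 61.8, 65.4 and 55.9 CPM (-0.39, adjusted p = 0.5, without overlap) and its footprints were at 345, 391 and 303 CPM.

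Uqcrq followed with a log2 ratio of 2.03 (SE 0.30, adjusted p = 0.00532), from 472, 372 and 407 CPM of control footprints over its low RNA. The other called members on the high side were Ndufb3 (1.70), Cox6a1 (1.44), Ndufs1 (1.37), Atp5g3 (1.29), Cox5a (1.14), Ndufs6 (1.04), Sdha (0.94) and Atp5d (0.87), with adjusted p of 0.00832 to 0.0453. They come from each of the 5 complexes once Uqcrq is counted for complex III. Ndufs1 is the largest core subunit and carries iron-sulfur clusters of the N module, and its ratio was 1.82, 2.77 and 2.70 in control and 1.70, 2.64 and 2.91 in shELP3. Ndufab1, outside the naming rule, had a log2 ratio of 2.42 (adjusted p = 0.00435).

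Cox7a2l was the 1 member called low, with a log2 ratio of -2.97 (SE 0.51, adjusted p = 0.00852). Its control RNA was at 869, 279 and 255 CPM and its control footprints at 64.9, 48.4 and 51.8 CPM. In shELP3 cells its RNA was at 457, 275 and 238 CPM and its footprints were at 51.7, 51.5 and 49.2 CPM, so the ratio was low in all 6 cultures, from 0.0746 to 0.207. Cox7c, a small membrane subunit of complex IV, was also low without overlap in control (-1.99, adjusted p = 0.0789), at 0.155, 0.428 and 0.472. Whether reads from near-identical copies enter the RNA counts of these genes was not tested.

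Of the 77 members tested, 64 (83.1%) had a control ratio above 0 on the log2 scale. Those with YY1 letters in the promoter window, named above, all did, from 0.56 to 2.36 with a median of 0.82 (n = 7). In all but Atp5j these letters lie after the start of transcription. Members with a window but without these letters had a median of 0.42 (n = 54). With and without the other motifs the medians were 0.51 (n = 16) and 0.46 (n = 45) for NRF1, 0.56 (n = 16) and 0.46 (n = 45) for GABPA, and 0.51 (n = 7) and 0.48 (n = 54) for ERR alpha. In footprints between shELP3 and shControl, the median log2 fold change with and without the motif was 0.19 and -0.05 for YY1, 0.12 and -0.06 for NRF1, -0.16 and 0.03 for GABPA, and -0.11 and -0.01 for ERR alpha. These are descriptions of small groups of genes that share libraries and carry no test.

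Other genes of the pathway were taken from lists of assembly factors, of 6 subunits outside the naming rule, of mitochondrial biogenesis factors and of the citric acid cycle. In RNA none of their tested genes was called, where 1.14% of all genes were. In footprints 4.83% of all genes were called (1.77% higher and 3.06% lower), and lists this small cannot be set apart from those shares by a single call. Of the assembly factors of complex III 1 of 6 was called higher, and it was Lyrm7, a chaperone of the Rieske protein. It read 11.1, 9.64 and 10.5 CPM in control and 21.5, 25.8 and 17.7 CPM in shELP3 (1.06, SE 0.20, adjusted p = 0.0333), without overlap. In the citric acid cycle 1 of 17 genes was called lower, Idh2, the mitochondrial NADP-dependent isocitrate dehydrogenase, at 371, 450 and 476 CPM in control and 261, 284 and 266 CPM in shELP3 (-0.68, SE 0.14, adjusted p = 0.0384). None of the assembly factors of complexes I (14 tested), II (4), IV (19) and V (3), of the 6 subunits and of the 14 biogenesis factors was called. In TE no gene of these lists was called.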

How the data were processed

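The authors deposited raw read counts per gene symbol, as whole numbers without normalization, for all 12 libraries. The build was mm10 and the tools were HTSeq, TopHat2 2.1.1, Bowtie and bcl2fastq, per the submitters' processing notes. The sources used here do not give the annotation, the strand setting or the feature over which footprints were counted, so antisense, overlapping or near-identical genes may share reads. Libraries were kept as labelled, and no pair in a group was alike within sampling noise (chi-square per degree of freedom 8.25 or more).

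Low counts were removed by filterByExpr (minimum count 10), in each fraction or, for TE and the ratio, in both. Libraries were scaled by TMM and tested with edgeR 4.0.16 in R 4.3.3 (glmQLFit, glmQLFTest, Benjamini-Hochberg over all genes tested, threshold 0.05). SE is the log2 fold change divided by the root of F. Log2 differences between libraries used a prior count of 2. The functions were tested on simulated data. Alternatives were DESeq2 1.42.0, RLE size factors, no filter, a minimum of 50, blocks, all 12 libraries in 1 model and leaving out libraries.

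Whether letters pair the samples was checked by correlating deviations from group means across genes. In RNA same-letter libraries of both shRNAs gave r of 0.824, 0.478 and 0.635, though B and C correlated as well with each other (0.736 and 0.613). In TE they gave 0.769, 0.466 and 0.492. In RPF they gave 0.345, -0.0978 and 0.248, so letters were not taken to pair RPF. RNA and RPF of a culture are tied by the labels.

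The members and lists were chosen with earlier results of these data known. Values per library are given for called members and for each complex's largest increase and decrease in RNA, RPF and TE among members whose mean log2 CPM was 3 or more. Atp5j, Ndufs1, Cox7a2l, Cox7c, Cox6a2, Cox5b, Atp5g3 and Ndufab1 were added after their values were seen. By symbol 82 of the 85 members matched RefSeq's table. A member's own values are not reported here where they are left out of the plot of ratios.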

Additional observations from a re-analysis of the deposited data

How the results depend on the processing

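Letter A, the small groups and the wide spread of RNA between cultures limit these results. Members called in RNA numbered 0, then 2 with DESeq2, 5 with the replicate block, 1 with all 12 libraries in 1 model and 9 with B and C alone. Calls over all genes went from 140 to 652, 1499, 330 and 2377 under the same settings, and from 0 to 540 when each library was left out. Members called in footprints went from 2 to 10 with DESeq2 (6 higher, 4 lower), to 1 with the replicate block, 1 with 12 libraries in 1 model, 18 with B and C alone, and 0 to 18 with each library left out. Calls over all genes went from 548 to 1308 with DESeq2, 2477 with B and C alone and 0 to 2856 with each library left out. The members' rises under these settings thus went along with rises over all genes and are not particular to the members. For the replicate block and the model over 12 libraries, no footprint count over all genes is given here. For the control ratio, members called went from 11 to 21 with DESeq2, 25 with the culture block, 68 with B and C alone and 0 to 68 with each culture left out, and all genes from 2443 to 3736 with the block, 7555 with B and C alone and 31 to 7555. The DESeq2 count of 21 is not set against all genes here, so it shows no change particular to the members. In TE all genes called went from 0 to 2 with B and C alone.

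With each library or culture left out, the members' median ran from -0.57 to 0.31 in RNA and from -0.29 to 0.49 in TE, where it was 0.0013 with B and C alone. The complex I median ran from -0.37 to 0.45 in RNA, from 0.11 to 0.22 in footprints and from -0.31 to 0.49 in TE. Cox7b RNA ran from -1.46 to 0.076 with each library left out, and reversed without control A. The cause of these changes was not tested. The replicate block changed no other call among the members in RNA or TE. RLE size factors and the stricter filter left the same members called in RNA, footprints and TE, and no filter on low counts added Atp5j2 in footprints (adjusted p = 0.0429).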
